A study of Mus musculus with 46 samples.

Results

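Islet RNA from control mice on 2 diets was compared, with 6 libraries on HFD set against 4 on RFD. These are 10 of the 46 libraries of the series, and they are defined by their labels: islets, genotype Clec control, diet HFD or RFD. HFD is the usual short form of a high-fat diet, while the labels spell out neither diet. The study targeted genes of mitochondrial upkeep in islets and liver, and these mice are the controls of its Clec16a experiment. The labels name no allele, Cre line, promoter, age or sex for them, and the series' design text says that both sexes were used. In all 10 libraries Xist, which the inactive X chromosome expresses, lay between 320.6 and 534.2 CPM (a count scaled to its library's total), and the Y-linked Ddx3y had 0 counts, which allows up to 0.145 CPM in the shallowest library. The titles number the libraries as biological replicates. They do not say whether a library is 1 mouse or a pool, so the p-values measure a spread between libraries. That spread was estimated over all 19 Clec16a islet libraries, those labelled KO included. The 9 libraries labelled KO, 5 on HFD and 4 on RFD, gave the same diet contrast in other samples. Clec16a itself lay at 20.9 to 31.8 CPM in the controls and at 23.4 to 32.9 CPM in the libraries labelled KO, so gene-level counts do not separate the genotypes, and the labels do not name the deleted exons.

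Pancreatic islets hold beta cells, which secrete insulin, together with alpha cells (glucagon), delta cells (somatostatin) and PP cells (pancreatic polypeptide). They are reached by nerve endings and vessels, and they lie in exocrine tissue whose acinar cells make digestive enzymes, some of which are carried over when islets are isolated. In mice, high-fat feeding is known for insulin resistance and for a rise in insulin output and beta cell mass. The comparison asks which transcripts differed between the diets in islets of mice that are not knockouts.

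Total counts ran from 20653198 to 42008642 on HFD and from 22504245 to 49105736 on RFD. The insulin gene Ins2 was high in every library, at 144100 to 230900 CPM over the 10. On the authors' TPM, which are scaled by gene length, Ins2 was at 294400 ± 30130 (SD, n = 6) on HFD and 298000 ± 25040 (SD, n = 4) on RFD. The other hormone genes followed on the same scale, with Ins1 at 114700 ± 35740 and 91450 ± 44640 TPM, Gcg at 58900 ± 7841 and 93790 ± 20250 TPM, and Iapp at 42780 ± 6717 and 36410 ± 4476 TPM, in the same order of groups. Sst was at 14960 ± 2716 TPM on HFD and 19020 ± 3787 TPM on RFD, and Ppy at 16520 ± 6263 and 24060 ± 3340 TPM, so that the SD ranges of Sst and of Ppy met between the diets. No 2 of the 10 libraries held identical counts.

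Some libraries stood apart from the rest. Transcripts of intestinal epithelium, summed over a list of 25 genes that was added after the data were seen, reached 151.9 CPM in HFD replicate 1, 661.1 CPM in HFD replicate 2 and 496.8 CPM in HFD replicate 5. In the other 3 HFD libraries the sum was 2.37 to 3.32 CPM, and on RFD it was 2.13 to 4.01 CPM, so among the controls the high sums were in HFD libraries only. Among the libraries labelled KO it was 259.8 CPM in RFD replicate 1, 14.2 CPM in RFD replicate 3 and 2.94 to 4.11 CPM in the other 7. As an example, Apoa4, an apolipoprotein of the gut, was at 47.3, 203.3 and 140.3 CPM in the 3 libraries and at most 0.221 CPM in the other 7. Ms4a1, a B cell surface protein, was at 7.59 CPM in HFD replicate 1 and 3.37 CPM in HFD replicate 2 and at most 0.166 CPM in the other 8. The ratio of Ins1 to Ins2 counts took 2 ranges: it was 0.398 to 0.466 in HFD replicates 1, 3 and 4 and 0.399 in RFD replicate 2, against 0.171 to 0.224 in the other 6 controls. In the libraries labelled KO it was 0.407 in HFD replicate 4 and 0.168 to 0.246 in the other 8. In 8 Tfam control islet libraries of the same series it was 0.178 to 0.199. KO HFD replicate 4 also lay with the controls on some list sums. Endothelial markers summed to 648.0 CPM there, 1001 to 1335 CPM in the other 8 and 578.2 to 732.9 CPM in the controls. Integrated stress response genes summed to 2283, 3481 to 5118 and 1983 to 2867 CPM, in that order. Its acinar sum of 18680 CPM lay within the range of the other 8. The part of these features in the diet differences was not tested, and the number of calls is given with and without the 3 HFD libraries. By the names of the deposited files, HFD replicates 1 to 3 and RFD replicates 1 and 2 were sequenced in lane 7 and the other 5 in lane 8, so each lane holds both diets.

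**Figure D1:**
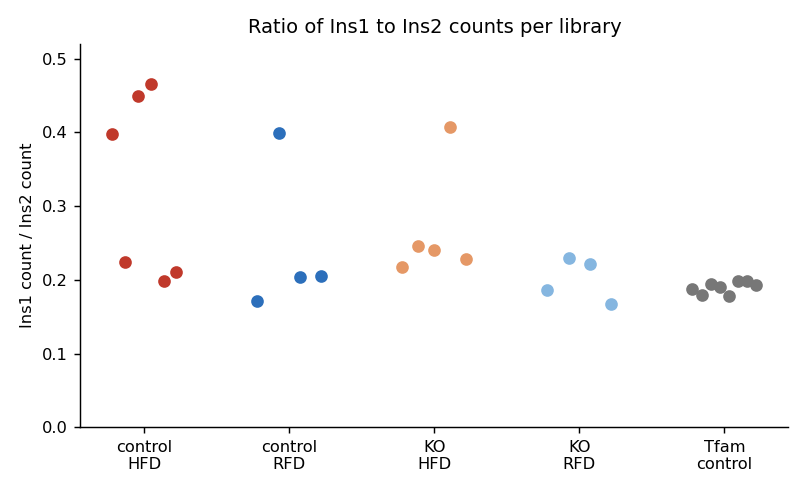
Ratio of Ins1 to Ins2 counts in each islet library (y axis, no unit) by group, 1 point per library. Most libraries lie between 0.168 and 0.246, and 4 control libraries and 1 library labelled KO lie between 0.398 and 0.466.

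Few genes passed the test. Of 17254 genes tested, edgeR's quasi-likelihood test called 7 between the diets at an adjusted p of 0.05 (0.0406%): 1 was higher on HFD (0.0058%) and 6 were lower (0.0348%). At an unadjusted p under 0.05 there were 973 genes (5.64%), 506 higher and 467 lower. In 257 genes (1.49%) the 6 HFD values and the 4 RFD values did not overlap, with HFD above in 85 and below in 172. The median log2 fold change over all genes was -0.0033, and 8473 of 17254 were higher on HFD. The spread in this test came from all 19 Clec16a islet libraries. With the 10 controls fitted alone it called 6 genes, 4 of them among the 7. Leaving out KO RFD replicate 1 or 2 left 3 calls. Without control HFD replicates 1, 2 and 5 the test called 1 gene, Vip, and in the 7 control libraries fitted alone it called 3, Vip, Lama2 and Gm5771. The Wald test of DESeq2 called 54 genes, 29 higher and 25 lower.

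**Figure D2:**
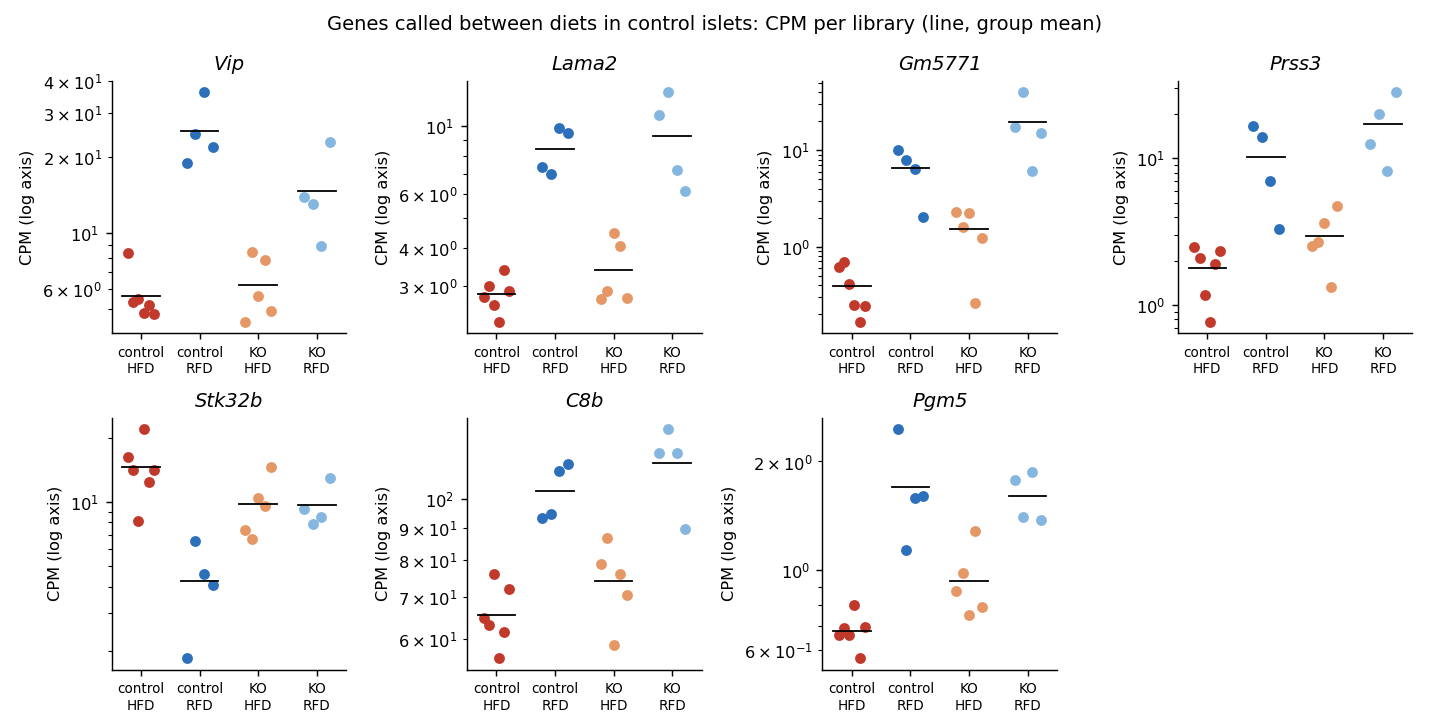
CPM of the 7 called genes in each library (log y axis), with control and KO libraries by diet, 1 point per library and a line at the group mean. In controls the HFD and RFD points do not overlap in any of the 7 panels.

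Vip (ENSMUSG00000019772, chr10:5639218-5647617, plus strand, GRCm38), which encodes the neuropeptide vasoactive intestinal peptide, fell on HFD. Its values on HFD were 8.36, 5.34, 5.51, 4.84, 5.18 and 4.78 CPM, and on RFD they were 19.1, 24.7, 36.2 and 22 CPM. Every HFD library lay under every RFD library, and by the fitted fold change the RFD level was 4.53 times the HFD level. This is a log2 fold change of -2.18 ± 0.24 (SE; edgeR adjusted p = 0.00027). Within lane 7 the log2 difference between the group means was -1.76 and within lane 8 it was -2.54. The lane values are differences of log2(mean CPM + 0.1). In the libraries labelled KO the same contrast gave -1.23 ± 0.25 (SE; edgeR adjusted p = 0.125), with means of 6.27 CPM on HFD and 14.7 CPM on RFD. The difference between the genotypes in this diet effect was 0.95 with an edgeR adjusted p of 1.0.

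Lama2 (ENSMUSG00000019899, chr10:26980036-27619758, minus strand), the alpha 2 chain of laminin in basement membranes, fell as well. It was at 2.75, 2.99, 2.6, 2.29, 3.38 and 2.88 CPM on HFD and at 7.33, 6.98, 9.88 and 9.50 CPM on RFD, again with no overlap. The log2 fold change was -1.57 ± 0.20 (SE; edgeR adjusted p = 0.00151), and in the libraries labelled KO it was -1.43 ± 0.21 (edgeR adjusted p = 0.0173). Within lanes 7 and 8 the differences of Lama2 were -1.33 and -1.73. Of 20 collagen genes, which encode other matrix proteins, all were tested and none was called, 7 were higher, and the median was -0.06. C8b (ENSMUSG00000029656, chr4:104766317-104804548, plus strand), the beta chain of complement component 8, was at 56.0 to 76.2 CPM on HFD and 93.2 to 113.5 CPM on RFD. Its log2 fold change of -0.65 ± 0.12 (SE; edgeR adjusted p = 0.0396) was the smallest among the 7. Pgm5 (ENSMUSG00000041731, chr19:24683016-24861855, minus strand), a phosphoglucomutase relative found at cell adhesions, was at 0.571 to 0.802 CPM on HFD and 1.14 to 2.46 CPM on RFD, a log2 fold change of -1.31 ± 0.23 (SE; edgeR adjusted p = 0.0396). The differences within lanes 7 and 8 were -0.47 and -0.83 for C8b and -1.30 and -1.10 for Pgm5. C8b and Pgm5 are calls near the threshold, and leaving out HFD replicate 1, 2, 4 or 5 or RFD replicate 1, 3 or 4, or adding the lane to the fit, took both above it, with adjusted p-values of up to 0.331 for these settings.

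Stk32b (ENSMUSG00000029123, chr5:37446825-37717171, minus strand), a serine/threonine kinase, was the gene that rose. It was at 16.3, 14.2, 8.11, 21.9, 12.3 and 14.1 CPM on HFD and at 1.84, 6.53, 4.59 and 4.06 CPM on RFD. The lowest HFD value exceeded the highest RFD value, and the log2 fold change was 1.76 ± 0.30 (SE; edgeR adjusted p = 0.0393), with differences of 1.60 in lane 7 and 1.87 in lane 8. The libraries labelled KO showed no such gap, with HFD at 9.73 ± 3.15 CPM (SD, n = 5), RFD at 9.63 ± 2.30 CPM (SD, n = 4) and a log2 fold change of 0.01. The interaction of diet and genotype for Stk32b was -1.75, with an edgeR adjusted p of 0.523, so the difference between the genotypes did not pass. The call was also lost, with adjusted p-values of up to 0.163, when any 1 of HFD replicates 1, 2, 4, 5 and 6 or RFD replicates 1, 3 and 4 was left out.

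The 2 other called genes are trypsinogens, the precursors of the digestive enzyme trypsin, which acinar cells secrete. Gm5771 (ENSMUSG00000058119, chr6:41392356-41397230, plus strand) and Prss3 (ENSMUSG00000071519, chr6:41373814-41377678, minus strand) both fell on HFD. They belong to a cluster of similar genes on chromosome 6, of which 9 were picked for comparison here, not all members of the cluster. Between these 9 the transcripts were 70.1% to 98.9% identical. Reads could be split between similar genes by the counting, and each value is uncertain to that degree. Over the aligned bases of the GENCODE M21 transcripts, Gm5771 was 97.8% identical to Prss1 and 95.7% to Prss3, while Prss3 was 98.9% identical to Gm10334 and Gm5771 was 87.3% identical to Prss2. Promoter windows from RefSeq (GRCm38.p6) are printed for the 2 genes that fell and for Prss2, a family member with another course. They run from 250 bases before to 50 bases after the gene start used by RefSeq. For Prss3 and Prss2 that start is not the GENCODE start, and the gene coordinates given above are GENCODE's. Capitals mark CACCTG, an E-box form, and TTTCCC, searched on both strands; these motifs do not overlap here.
Gm5771, chr6:41392106-41392405, plus strand: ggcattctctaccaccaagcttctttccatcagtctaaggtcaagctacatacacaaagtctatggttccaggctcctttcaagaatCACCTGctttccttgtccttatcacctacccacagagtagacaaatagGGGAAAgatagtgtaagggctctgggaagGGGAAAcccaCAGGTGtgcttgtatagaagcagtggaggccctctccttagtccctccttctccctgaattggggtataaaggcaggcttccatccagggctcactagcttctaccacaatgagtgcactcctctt
Prss3, chr6:41377564-41377863, minus strand: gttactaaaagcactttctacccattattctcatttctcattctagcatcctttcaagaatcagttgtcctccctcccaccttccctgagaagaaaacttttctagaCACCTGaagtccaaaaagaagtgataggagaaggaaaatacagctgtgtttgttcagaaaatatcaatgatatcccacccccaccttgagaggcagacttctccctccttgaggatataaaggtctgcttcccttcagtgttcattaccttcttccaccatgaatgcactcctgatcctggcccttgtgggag
Prss2, chr6:41521526-41521825, plus strand: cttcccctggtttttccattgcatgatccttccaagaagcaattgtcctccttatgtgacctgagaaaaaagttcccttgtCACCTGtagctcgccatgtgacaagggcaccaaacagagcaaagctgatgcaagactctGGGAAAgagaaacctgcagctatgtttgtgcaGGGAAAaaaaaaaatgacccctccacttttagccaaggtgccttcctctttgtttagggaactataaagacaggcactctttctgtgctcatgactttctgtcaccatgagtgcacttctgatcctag

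CACCTG was found 2 times in the Gm5771 window and 1 time each in those of Prss3 and Prss2, and 20.2% of all 32851 windows hold it. TTTCCC was found 2 times each in the windows of Gm5771 and Prss2 and 0 times in that of Prss3, against 25.2% of all windows with at least 1 match. Aligned over 257 bases, the windows of Gm5771 and Prss3 were 67.3% identical. The window of Gm5771 was 97.5% identical to that of Prss1, and the window of Prss3 was 96.8% identical to that of Gm10334, which pairs each gene that fell with a near copy.

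Gm5771 was at 0.612, 0.690, 0.408, 0.249, 0.166 and 0.240 CPM on HFD and at 10.1, 7.89, 6.44 and 2.01 CPM on RFD. The groups did not overlap, and by the fitted fold change the RFD level was 17.2 times the HFD level. Its log2 fold change was -4.10 ± 0.58 (SE; edgeR adjusted p = 0.00388), resting on 72 counts over the 6 HFD libraries and 842 over the 4 RFD libraries. Prss3 was at 2.50, 2.10, 1.17, 0.774, 1.90 and 2.35 CPM on HFD and at 16.5, 14.0, 6.97 and 3.30 CPM on RFD. These groups did not overlap either, and the log2 fold change was -2.50 ± 0.43 (SE; edgeR adjusted p = 0.0393). Leaving out any 1 of HFD replicates 1 to 5 or RFD replicates 1 to 3 took Prss3 above the threshold, with an adjusted p of up to 0.248. Within lanes 7 and 8 the differences were -3.76 and -3.76 for Gm5771 and -2.92 and -1.56 for Prss3. In the libraries labelled KO the log2 fold changes were -3.68 ± 0.56 (SE; edgeR adjusted p = 0.0173) for Gm5771 and -2.55 ± 0.45 (SE; edgeR adjusted p = 0.0523) for Prss3.

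The near copies of the 2 genes had few reads. Prss1 had 13 counts over all HFD libraries and 52 over all RFD libraries, with a log2 fold change of -2.43 ± 0.86 (SE; edgeR adjusted p = 0.61), and Gm10334, which was not tested, had 2 and 18 counts. Among the trypsinogens compared here, Prss2, Try10, Try4 and Try5 were not lower in this way. Prss2 was at 2928, 1594, 962.5, 1830, 1209 and 1095 CPM on HFD and at 760.2, 963.8, 685.7 and 391.0 CPM on RFD, a log2 fold change of 1.19 ± 0.48 (SE; edgeR adjusted p = 0.743). Only the third HFD library fell within the RFD range of Prss2. Try10 had a log2 fold change of 1.34 ± 0.60 (SE; edgeR adjusted p = 0.837). Try4, at 310.3 ± 124.7 CPM (SD, n = 6) and 289.2 ± 185.3 CPM (SD, n = 4), and Try5, at 195.8 ± 119.6 CPM (SD, n = 6) and 201.7 ± 118.1 CPM (SD, n = 4), overlapped between the diets. Their log2 fold changes of 0.10 and -0.04 changed sign with the settings.

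The other acinar genes were, as a list, higher on HFD, but none of them passed the test. Of 46 genes on the acinar list 39 were tested, and of the 32 outside the trypsinogens compared above 31 were higher on HFD, with a median log2 fold change of 1.11. At an unadjusted p under 0.05, 21 of these 32 were higher, against 2.93% of all genes, and in 8 the groups did not overlap (0.493% of all genes are that way with HFD above). The list's summed CPM was 13820 to 40030 on HFD, with a median of 21060, and 6857 to 13710 on RFD, with a median of 11240. Over all 39 tested genes the median was 1.04 in controls and 1.16 in the libraries labelled KO. In the latter the sums overlapped, at 14730 to 29970 CPM on HFD and 2999 to 20330 CPM on RFD, where replicate 4 was the highest. Cel, Pnlip, Cpa1, Sycn and Rbpjl are named here after their values were seen. Sycn, syncollin of the zymogen granule, was at 795.9, 395.5, 244.9, 427.2, 281.9 and 259.0 CPM on HFD and at 175.4, 184.5, 149.5 and 83.9 CPM on RFD. Its log2 fold change was 1.43 ± 0.43 (SE; edgeR adjusted p = 0.467). Cel, a lipase activated by bile salts, Pnlip, the pancreatic lipase, and Cpa1, a carboxypeptidase, also had no overlap, with log2 fold changes of 1.33, 1.25 and 1.23. Rbpjl, a transcription factor of acinar cells, was at 17.9 ± 7.74 CPM (SD, n = 6) and 8.41 ± 2.70 CPM (SD, n = 4). Reg1, which acinar cells also make, was at 505.9 ± 217.2 and 223.6 ± 85.2 CPM. Amy2b, an amylase, had the highest log2 fold change of the list at 1.99 ± 0.57 (SE; edgeR adjusted p = 0.454). It was at 116.7, 94.4 and 87.9 CPM in HFD replicates 1, 3 and 4, the 3 HFD libraries with the high insulin ratio, and 24.3 to 34.0 CPM in the other 3. RFD replicate 2, with the high ratio too, was at 27.6 CPM and the other RFD libraries at 6.63 to 18.5 CPM. KO HFD replicate 4, also with the high ratio, was at 32.4 CPM, within the 9.09 to 69.7 CPM of the other libraries labelled KO. In bulk RNA, more cells of a type and more RNA per cell cannot be told apart. The acinar score of a library is its mean log2 CPM over the acinar list, which includes Gm5771 and Prss3. With this score in the fit, Gm5771 and Prss3 were still called among 5 genes, but the score is not independent of them.

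**Figure D3:**
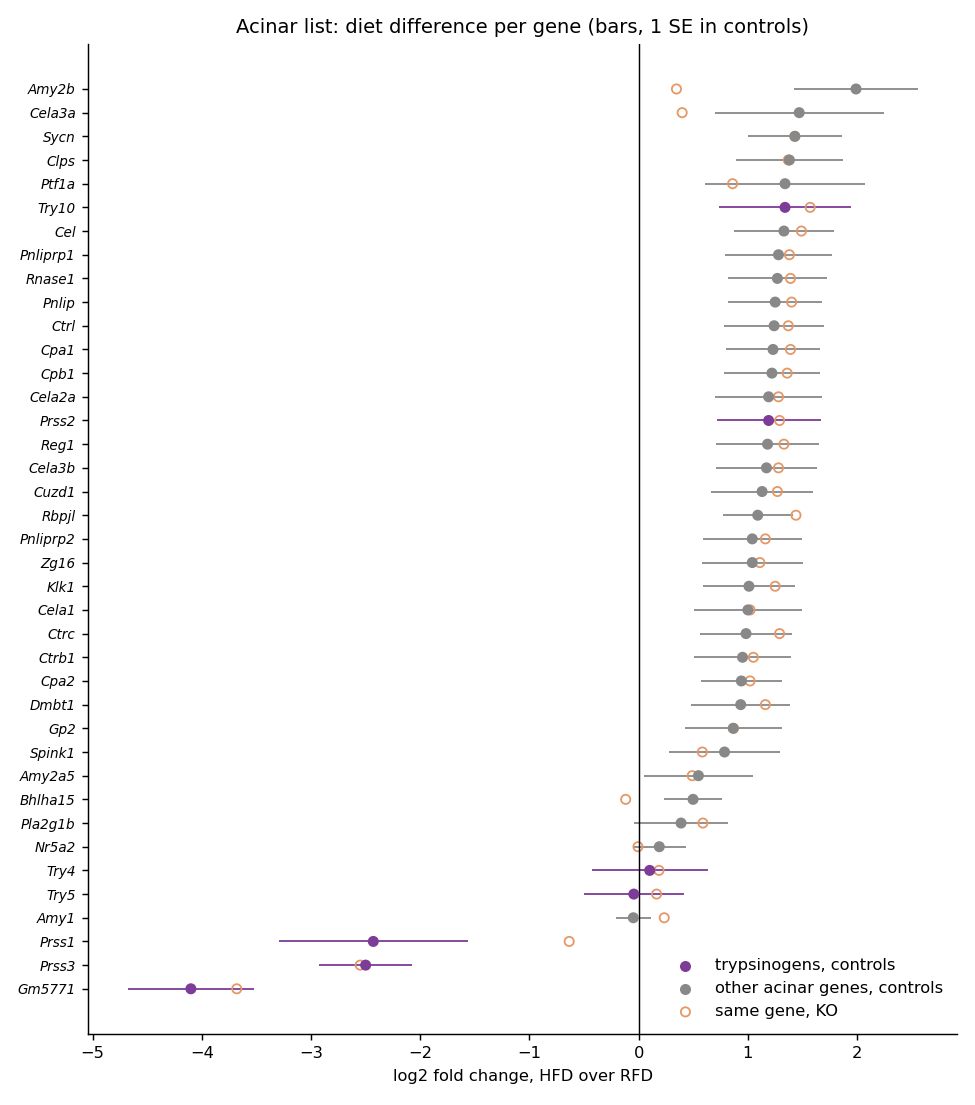
Log2 fold change of HFD over RFD (x axis) for each of the 39 tested acinar genes, with bars of 1 SE in controls and open circles for the libraries labelled KO. Most acinar genes lie near a log2 value of 1, while Gm5771 and Prss3 lie at -4.10 and -2.50.

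Genes of alpha cells, which secrete glucagon, were lower on HFD as a list, with none called. All 16 genes of the list were tested: 13 were lower, 8 of them at an unadjusted p under 0.05 (2.71% of all genes are lower at that level), and the median log2 fold change was -0.39. The summed CPM of the list did not overlap between the diets, at 35260 to 50550 on HFD and 53040 to 80610 on RFD. Without Gcg the sum was 2687 to 3855 on HFD and 4208 to 6226 on RFD. Gcg, the glucagon gene, was at 42910, 48640, 50090, 31980, 39340 and 44530 CPM on HFD and at 68910, 53460, 74670 and 69920 CPM on RFD. The log2 fold change of Gcg was -0.64 ± 0.17 (SE; edgeR adjusted p = 0.454), and the 2 groups did not overlap. Ttr, transthyretin, a carrier of thyroid hormone that alpha cells make in quantity, was at 1885, 2461, 1632, 1277, 2373 and 2384 CPM on HFD and at 4770, 3192, 3711 and 3300 CPM on RFD. Ttr missed the threshold at -0.90 ± 0.18 (SE; edgeR adjusted p = 0.078), and the Wald test called it. The transcription factor Irx2, which marks alpha cells in the adult mouse, was at -0.50 ± 0.15 (SE), and Irx1, named after its values were seen, at -0.56. In the libraries labelled KO the list's median was -0.45, with Gcg at -0.92 ± 0.18 (SE; edgeR adjusted p = 0.0946) and Ttr at -1.01 ± 0.18 (SE; edgeR adjusted p = 0.0523). With the acinar score in the fit, the fold change of Gcg in controls was -0.44 and that of Ttr -0.89. Over the settings tried, the median of the alpha list stayed between -0.46 and -0.29.

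**Figure D4:**
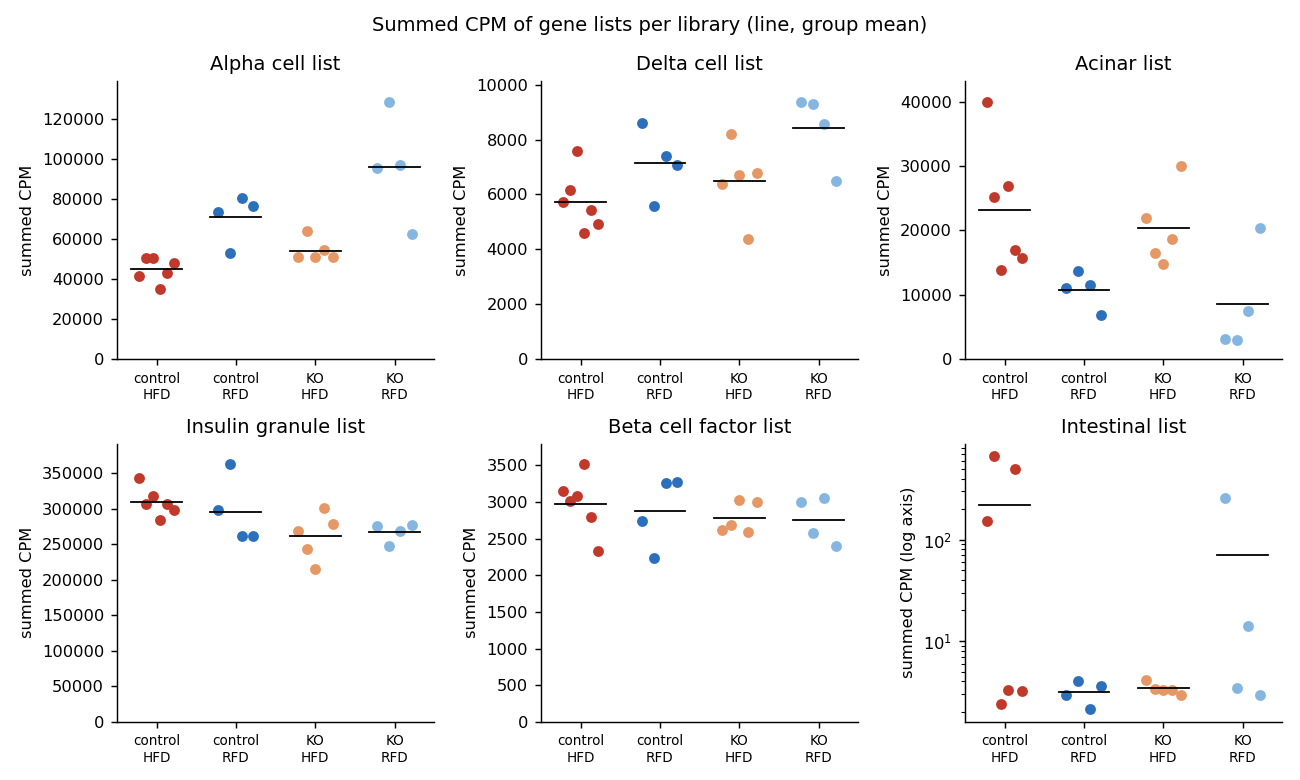
Summed CPM of 6 gene lists in each library (y axes, linear from 0 except the log axis of the intestinal list), with a line at the group mean. In controls the alpha cell sums are lower and the acinar sums higher on HFD with no overlap, and the insulin granule and beta cell factor sums overlap.

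Delta and PP cell genes leaned the same way with more overlap. Of 12 delta genes 11 were tested and 9 were lower, with a median of -0.31, and their sums overlapped at 4613 to 7579 CPM and 5566 to 8608 CPM. Sst, somatostatin, was at -0.31 ± 0.18 (SE; edgeR adjusted p = 0.999), and Rbp4, a retinol carrier, at 180.7 ± 34.3 CPM (SD, n = 6) and 245.8 ± 51.3 CPM (SD, n = 4). All 8 PP genes were tested and 6 were lower, with a median of -0.17. Ppy was at 1312 CPM in HFD replicate 4, the lowest of all, at 3710 to 6030 CPM in the other HFD libraries and at 5286 to 6641 CPM on RFD.

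Vip was not alone among neuropeptides in lying low on HFD, but it was the only one called. Of 30 genes on the hormone and neuropeptide list 21 were tested, 13 were lower and 6 of these passed an unadjusted p of 0.05 (2.71% of all genes did so), with a median of -0.29. Tac1, the precursor of substance P, was at 0.510, 0.281, 0.459, 0.995, 0.808 and 0.321 CPM on HFD and at 1.5, 2.34, 2.65 and 1.57 CPM on RFD. The Tac1 groups did not overlap, and the log2 fold change was -1.82 ± 0.38 (SE; edgeR adjusted p = 0.142). Npy, neuropeptide Y, was at 4.29 to 28.1 CPM on HFD and at 14.4, 44.3, 51.8 and 56.8 CPM on RFD, where the lowest value, of replicate 2, lay within the HFD range. Its log2 fold change was -1.63 ± 0.42 (SE; edgeR adjusted p = 0.431). Markers of Schwann cells and neurons, read as a whole list, had a median of -0.51: 22 of 23 were tested, 17 were lower, 6 at an unadjusted p under 0.05 (2.71% of all genes), and none was called. Among them were genes of cholinergic neurons, which release acetylcholine. Slc5a7, the choline transporter, was at 1.17 ± 0.44 CPM (SD, n = 6) and 2.49 ± 0.96 CPM (SD, n = 4), and Slc18a3, which loads acetylcholine into vesicles, at 1.02 ± 0.28 and 2.20 ± 0.51 CPM. Prph, a filament of peripheral neurons, was at 4.15 ± 0.94 and 7.34 ± 2.48 CPM. The list's summed CPM overlapped, at 406.9 to 529.1 on HFD and 415.4 to 559.9 on RFD, and its median in the libraries labelled KO was -0.0086. Whether the level of Vip moves with nerve endings was not tested.

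**Figure D5:**
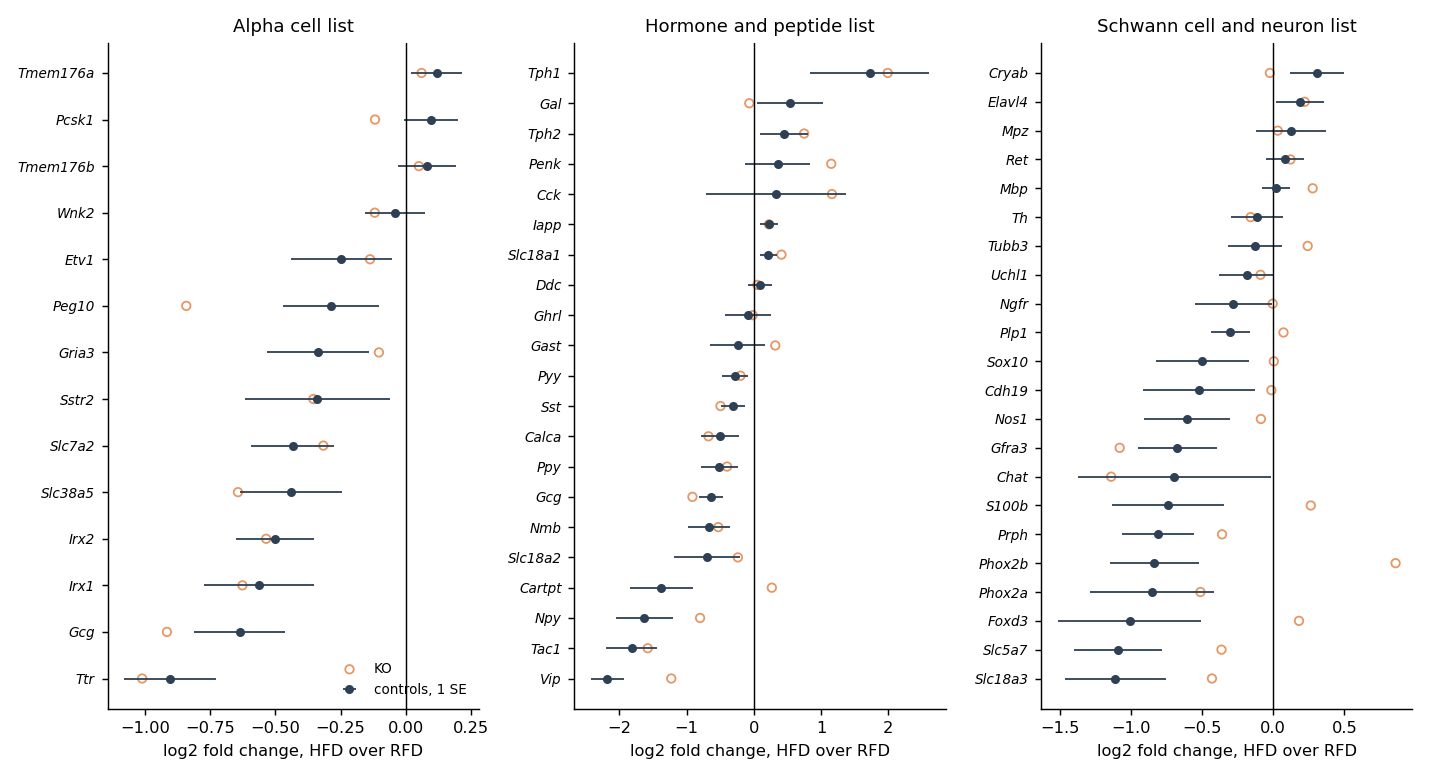
Log2 fold change of HFD over RFD (x axes) for tested genes of 3 lists, with filled points and bars of 1 SE for controls and open circles for the libraries labelled KO. In controls 13 of 21 hormone and peptide genes and 17 of 22 Schwann cell and neuron genes lie below 0, and most of the alpha cell genes plotted do.

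Beta cell genes did not pass the test between the diets in either direction. Of 29 tested genes of the insulin granule 18 were higher, with a median of 0.025, of 22 beta cell transcription factors 17 were higher, with a median of 0.043, and of 30 genes of glucose sensing and secretion 16 were higher, with a median of 0.013. Ins2 was at -0.01 ± 0.16 (SE; edgeR adjusted p = 0.999). Ins1 was at 89530, 44410, 81040, 67060, 39870 and 38880 CPM on HFD and at 35210, 92240, 33610 and 32950 CPM on RFD, so that RFD replicate 2 was the highest of the 10. The log2 fold change of Ins1 was 0.31 ± 0.32 (SE; edgeR adjusted p = 0.999), and without RFD replicate 2 it was 0.83. That library has the high insulin ratio, and HFD replicates 1, 3 and 4, which have it too, stayed in that fit. In the libraries with the low ratio, Ins1 was at 38880 to 44410 CPM on HFD and 32950 to 35210 CPM on RFD. With the ratio, which contains Ins1 itself, in the fit, the fold change of Ins1 changed sign. Iapp, islet amyloid polypeptide, was at 0.22 ± 0.14 (SE), Ucn3, a peptide of mature beta cells, at 0.14 ± 0.14, and Mafa, an activator of insulin genes, at 0.05 ± 0.21. Pdx1 and Nkx6-1, both beta cell transcription factors, were at 0.20 ± 0.14 and 0.23 ± 0.18. Scg2, a granule protein, was the granule gene with no overlap, at 6480 to 8501 CPM on HFD and 5291 to 6469 CPM on RFD, with a log2 fold change of 0.36 ± 0.17 (SE; edgeR adjusted p = 0.889). Genes that mature beta cells keep low had a median of -0.11 over 28 tested genes, of which 16 were lower. Hk1, a hexokinase of this kind, was at -0.32 ± 0.12 (SE; edgeR adjusted p = 0.61) and Nnat, an imprinted gene of beta cells, at -0.84 ± 0.35 (SE; edgeR adjusted p = 0.803).

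Lipid genes gave no call. Of 44 genes of fatty acid oxidation and PPAR targets 40 were tested, 28 were higher and none was called, with a median of 0.086. Their summed CPM did not overlap between the diets, at 2232 to 2437 on HFD and 2043 to 2228 on RFD. Cpt1a, the gate of fatty acid entry into mitochondria, was at 70.2 to 86.5 CPM on HFD and at 43.7, 72.6, 69.3 and 73.4 CPM on RFD, a log2 fold change of 0.30 ± 0.12 (SE; edgeR adjusted p = 0.778). Plin2, a lipid droplet coat, was at 0.30 ± 0.13 (SE). Fabp4, a fatty acid binding protein, was at 12.1 CPM in RFD replicate 2 and 2.56 to 3.73 CPM in the other RFD libraries, against 6.13 to 13.0 CPM on HFD. Pdk4, a brake on pyruvate oxidation, was at -0.13 ± 0.19 (SE). All 25 sterol synthesis genes were tested, 21 were lower, and the median was -0.071, with none at an unadjusted p under 0.05.

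Interferon targets were higher as a list. All 28 were tested, 25 were higher, 9 of them at an unadjusted p under 0.05 (2.93% of all genes), and the median was 0.32. None was called by edgeR and 2 were called by the Wald test (0.168% of all genes were called higher). The list's summed CPM overlapped, at 1055 to 1389 on HFD and 1029 to 1161 on RFD, and in 3 of the 28 genes the groups did not overlap (0.493% of all genes with HFD above). Ifi44, an interferon-induced protein, was at 2.89 to 3.88 CPM on HFD and 1.54 to 2.12 CPM on RFD, a log2 fold change of 0.84 ± 0.20 (SE; edgeR adjusted p = 0.244). Oas2, a sensor of double-stranded RNA, was at 1.85 to 7.05 CPM on HFD and 0.614 to 1.76 CPM on RFD, and B2m, the light chain of MHC class I, at 127.4 to 210.8 CPM and 92.6 to 116.7 CPM. Ifi44, Oas2 and B2m are the 3 genes with no overlap. Immune markers were also higher as lists: of 24 macrophage markers 17 were higher, with a median of 0.14 and overlapping sums of 723.9 to 1160 CPM and 876.8 to 1008 CPM. Of 15 tested lymphocyte markers 13 were higher, with a median of 1.03 in controls and 1.04 in the libraries labelled KO, and they summed to 30.3 to 436.0 CPM on HFD and 17.1 to 392.2 CPM on RFD. Over the alternatives the macrophage median ran from -0.034 to 0.23 and the lymphocyte median from -0.42 to 1.19. Their part in the interferon values was not tested.

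The stress lists gave no call either. Of 31 tested genes of the unfolded protein response in the endoplasmic reticulum 30 were higher, with a median of 0.11 and none at an unadjusted p under 0.05, and the summed CPM overlapped at 8125 to 12990 and 8857 to 9864. Dnajc3, a chaperone of this response, was at 0.27 ± 0.14 (SE). Of 40 tested genes of the integrated stress response 29 were higher, with a median of 0.17. Nupr1, a stress-induced nuclear protein, was at 51.3 to 145.0 CPM on HFD and 16.7 to 52.1 CPM on RFD, a log2 fold change of 1.03 ± 0.40 (SE; edgeR adjusted p = 0.708). Of 28 proliferation genes 16 were lower, with a median of -0.064, and E2f1, a driver of entry into S phase, was at 0.47 ± 0.15 (SE; edgeR adjusted p = 0.522).

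The 54 genes of the Wald test (0.313% of 17254) included all 7 calls of edgeR. Of its 29 higher genes (0.168%), 18 had HFD replicates 1, 2 and 5 as their 3 highest libraries. On the intestinal list, with 24 of the 17254 tested genes, were 10 of the 29. Sis, sucrase-isomaltase of the gut brush border, and Alpi, an intestinal alkaline phosphatase, were among the 18. These 3 libraries and the list were picked after the data were seen, so both counts are descriptions. The share of all tested genes with these 3 libraries highest was not computed. Of its 25 lower genes (0.145%), 21 had no overlap between the diets (0.997% of all genes are that way with HFD below), and of the 29 higher genes 7 had none (0.493% with HFD above). Beside Ttr and Tac1 these lower genes included Vwde, a secreted protein with EGF domains, at 24.5 ± 4.03 CPM (SD, n = 6) and 42.8 ± 8.64 CPM (SD, n = 4), and Egflam, a matrix protein, at 9.47 ± 0.63 and 14.9 ± 2.14 CPM. Gatm, the first enzyme of creatine synthesis, was on the higher side with no overlap, at 80.4 to 150.0 CPM on HFD and 35.4 to 61.0 CPM on RFD, a log2 fold change of 0.98 ± 0.22 (SE; edgeR adjusted p = 0.193). Plppr4, a membrane protein of neurons, was at 32.2, 33.5 and 36.6 CPM in HFD replicates 1, 3 and 4 and at 12.6 to 16 CPM in the other 3, with 15.1 CPM in RFD replicate 2 and 6.64 to 9.86 CPM in the other RFD libraries. Within each diet of the controls Plppr4 was highest in the libraries with the high insulin ratio. KO HFD replicate 4, also with the high ratio, was at 23.8 CPM, within the 15.5 to 24.6 CPM of the other libraries labelled KO. With that ratio in the fit the log2 fold change of Plppr4 in controls went from 1.23 to 0.84.

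The libraries labelled KO gave the same contrast in 9 other samples, with an estimate of the spread that is shared with the controls. Here edgeR called 2 of 17254 genes (0.0116%), Lama2 and Gm5771, both lower on HFD and both also called in controls. Of the 7 genes called in controls, 6 had log2 fold changes of -0.62 to -3.68 in the libraries labelled KO, and Stk32b had 0.01. At an unadjusted p under 0.05 there were 946 genes (5.48%). The count in KO depended on single libraries. It was 27 without KO HFD replicate 4, the library labelled KO with the high insulin ratio and some list sums like the controls. It was 31 without KO RFD replicate 4, and 0 without KO HFD replicate 1 or 2 or KO RFD replicate 2. The interaction of diet and genotype gave 0 calls by edgeR, 406 genes at an unadjusted p under 0.05 (2.35%), and 20 calls by the Wald test. Averaged over both genotypes, the diet contrast called 42 genes (0.243%), 12 higher (0.0695%) and 30 lower (0.174%), of which 6 were called in controls alone, and 1509 genes (8.75%) passed an unadjusted p of 0.05. This contrast uses the control libraries again. Gcg passed here, at -0.78 ± 0.13 (SE; edgeR adjusted p = 0.00698), as did Ttr at -0.96 ± 0.13 (edgeR adjusted p = 0.000596) and Irx2 at -0.52 ± 0.11 (edgeR adjusted p = 0.0474). Tac1 passed at -1.70 ± 0.28 (SE; edgeR adjusted p = 0.0083), and Gatm rose by 0.89 ± 0.16 (SE; edgeR adjusted p = 0.0159). The potassium channel genes Kcnk3 and Kcnd3, the translation factor Eef1a2 and the calcium sensor Ncs1 fell, at -0.64, -1.16, -0.68 and -0.54. In controls alone their log2 fold changes were -0.61, -1.24, -0.59 and -0.63, with edgeR adjusted p-values of 0.142, 0.145, 0.142 and 0.102. Without control HFD replicates 1, 2 and 5 the average called 13 genes, and without KO RFD replicate 4 it called 140.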

How the data were processed

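Total RNA of mouse islets that were cultured overnight was sequenced as paired-end reads, per the labels' protocols. The submitters' processing notes name FastQC, featureCounts, MultiQC, DESeq2, STAR 2.6.1b, RSEM 1.3.1 and GRCm38, with no role or order, so the counting step and its strand setting are not given in the sources used here. Each deposited file holds the authors' raw count per gene, which was used for all tests, and the authors' TPM, which were used only for levels between genes. The authors' CPM values were deposited as well and not used: CPM were computed here from the counts, on TMM-scaled library sizes for genes and on total counts for summed lists. GENCODE M21 matched 55227 of 55487 identifiers.

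The 19 Clec16a islet libraries (4 groups, 15 residual degrees of freedom) were fitted with edgeR 4.0.16 in R 4.3.3: TMM, filterByExpr, the quasi-likelihood F-test and Benjamini-Hochberg adjustment over 17254 genes, with 4 contrasts (diet in controls, diet in KO, their interaction and their average). The threshold for a call was an adjusted p of 0.05. Standard errors are the log2 fold change divided by the square root of F. DESeq2 1.42.0 gave the Wald test. Differences within lanes are between the values of log2(mean CPM + 0.1) of the diets. The labels define the groups, but the members compared and the 35 gene lists were chosen with earlier results of these data known, and the intestinal list was added after the data were seen, so counts over a list are descriptions. Named genes were those called in controls, the 15 and 10 leading calls of the average and of the Wald test, up to 3 leading genes a list, relatives of called genes and fixed islet genes. Cel, Cpa1, Irx1, Pnlip, Rbpjl and Sycn were chosen after their values were seen. The alternatives were other size factors, filters, libraries, covariates, a replicate block, the Wald test and each library left out. Tested on simulated counts of the control contrast with 17023 genes, of which 194 were changed, the fit recovered 65.6% of 2-fold and 95.9% of 4-fold changes, and 6.55% of its 168 calls fell on unchanged genes. These counts were drawn from the fit's own dispersions, without the library differences described above. With 168 calls against 7 in the data, the adjusted threshold was also looser in unadjusted p. The rates therefore do not give the share of real changes that the contrast finds. At these depths the 3 counts that a count of 0 allows correspond to 0.0611 to 0.145 CPM. Intervals of this kind cover counting error only. Promoter sequences are RefSeq's, found for 7 of 7 called genes. Some genes of the lists are not reported here.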

Additional observations from a re-analysis of the deposited data

Results flagged for a closer look

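Among 194 groups of library values checked, 16 had 1 library far from the others of its diet. The cut-offs used give about 1 in 20 for independent, normally distributed values. These values are unlogged and come from the same libraries, so that rate is no baseline for the 16. In HFD replicate 1, Vip was at 8.36 CPM against 4.78 to 5.51 CPM in the other HFD libraries, and Slc18a3 at 1.53 CPM against 0.765 to 1.05 CPM. The same library was high for the trypsinogens Prss1 (0.255 CPM against 0.0238 to 0.0829 CPM), Try4 (546.0 CPM against 189.8 to 319.8 CPM) and Try5 (434.5 CPM against 109.7 to 186.9 CPM). HFD replicate 4 was high for Gatm, at 150.0 CPM against 80.4 to 104.7 CPM, and HFD replicate 6 was low for Mafa, at 243.1 CPM against 424.4 to 500.2 CPM.

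RFD replicate 2 stood apart for Ins1 (92240 CPM against 32950 to 35210 CPM), Fabp4 (12.1 CPM against 2.56 to 3.73 CPM) and Pdx1 (139.9 CPM against 173.4 to 180.3 CPM). Its summed lymphocyte markers were 392.2 CPM against 17.1 to 40.5 CPM, and its summed mesothelial markers 48.9 CPM against 103.8 to 106.7 CPM. In RFD replicate 1, Ncs1 was at 14.0 CPM against 9.68 to 10.1 CPM and Cpt1a at 43.7 CPM against 69.3 to 73.4 CPM. In RFD replicate 4 the summed macrophage markers were 1008 CPM against 876.8 to 887.4 CPM, and Alpi was at 0.0254 CPM against 0 in the other RFD libraries, a value of 1 count.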

How the results depend on the processing

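The number of calls in controls, 7 in all, was 3 with the lane in the fit (0 higher, 3 lower), 3 with a replicate block (1 higher, 2 lower), 3 with the Ins1 to Ins2 ratio in the fit (0 higher, 3 lower) and 3 with only the controls and without the 3 HFD libraries that hold intestinal transcripts (0 higher, 3 lower). It was 1 without these 3 libraries and 1 without the 4 that hold them in either genotype, with 0 higher and 1 lower in each case, and 54 by the Wald test of DESeq2 (29 higher, 25 lower). In the 10 controls alone 0 were higher. With any 1 library left out there were 3 to 12 calls, 0 to 3 higher and 3 to 9 lower: 12 without RFD replicate 2, and 3 without HFD replicate 1, 2, 4 or 5, RFD replicate 1 or 3, or KO RFD replicate 1 or 2. Calls in the libraries labelled KO, 2 in all, were 6 with no filter, 0 with the acinar score, 0 with the insulin ratio, 0 without the 3 libraries, 1 without the 4, 42 by the Wald test, and 0 to 31 with 1 library left out. The interaction had 20 by the Wald test and 0 with any 1 library left out. The average, with 42, had 79 with the lane, 13 with the acinar score, 19 with the replicate block, 12 with the insulin ratio, 13 without the 3 libraries, 12 without the 4, 216 by the Wald test, and 20 to 140 with 1 library left out. The cause of these shifts was not tested.

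Vip was called under all 31 alternatives, with adjusted p-values from edgeR or DESeq2 of 8.01e-15 to 0.026. Lama2 was called under 28 of 31 and Gm5771 under 28 of the 30 that tested it. Lama2 had edgeR adjusted p-values of 0.0694 with the replicate block, 0.0621 without the 3 libraries and 0.0865 without the 4, and Gm5771 had 0.117 and 0.167 without the 3 and the 4. Prss3 was called under 14, C8b under 13, Stk32b under 11 and Pgm5 under 6, and none of the 7 reversed. Of 2111 values of 69 genes 2083 kept their direction, and 28 reversed in 6 genes that were not called. Try4 went to -0.58 with the acinar score, -0.012 with the block, -0.22 without the 3 or the 4 libraries, -0.23 in controls without the 3, and from -0.17 to 0.56 without 1 library. Try5 went to 0.067 with the lane and from -0.44 to 0.34 without 1 library, Ins1 to -0.025 with the insulin ratio and Ins2 from -0.088 to 0.10 without 1 library. Ucn3 went to -0.013 without the 3 or the 4 and -0.0155 in controls without the 3. Mafa went to -0.022 with the acinar score, -0.073 without the 3, -0.076 without the 4, -0.076 in controls without the 3 and from -0.091 (without RFD replicate 2) to 0.20 without 1 library. No clear pairing of the diets by replicate number was seen: over 4 same-numbered pairs the correlation of deviations was -0.105 to 0.174, and 1 of 4 RFD libraries correlated best with its own number. Correlations over so few pairs cannot exclude a pairing. List medians changed sign under 1 of 31 alternatives for beta cell factors and sterol synthesis, 2 for genes low in mature beta cells, 3 for glucose sensing and 4 for proliferation.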

Other observations

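Further gene groups of the control islets gave no calls. All 8 tested genes of mitochondrial DNA were higher on HFD, with a median log2 fold change of 0.10, and their sums overlapped at 13490 to 30110 CPM on HFD and 12890 to 29450 CPM on RFD. Nuclear genes of oxidative phosphorylation split evenly, with 39 of 74 higher and a median of 0.010. Both medians changed sign under some alternatives, with ranges of -0.031 to 0.37 and -0.082 to 0.11. Targets of NF-kB had 16 of 17 tested genes higher with a median of 0.15, antioxidant targets of Nrf2 had 20 of 27 higher with a median of 0.064, and core clock genes had 15 of 19 lower with a median of -0.056, which changed sign under 1 of 31 alternatives.

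Markers of duct cells, which line the pancreatic ducts, had 13 of 15 tested genes higher with a median of 0.20, and their sums overlapped at 836.6 to 985.7 CPM and 775.3 to 899.6 CPM. Endothelial markers had 11 of 17 higher with a median of 0.039. Genes of the Reg family, which regenerating pancreas expresses, had 5 of 6 tested genes higher with a median of 0.94, and in the libraries labelled KO 2 of the 6 were higher with a median of -0.55. Over the alternatives the median in controls ran from -0.097 to 1.18 and changed sign under 3 of 31, and the endothelial median changed sign under 1.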
